A study of Rattus norvegicus with 13 samples.

Results

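Hepatocytes clear bile acids, hormones, bilirubin and drugs from portal blood through carriers in the sinusoidal membrane, and they attach glycine or taurine to bile acids before secreting them into bile. A set of 8 rat genes for this function was chosen by gene identity: the sodium-dependent bile acid carrier Slc10a1, the organic anion transporting polypeptides Slco1a1, Slco1b2 and Slco2b1, the organic anion transporters Slc22a7 and Slc22a8, the bile acid-CoA ligase Slc27a5, and the bile acid-CoA amino acid N-acyltransferase Baat. The set was chosen with earlier results of these data known. The study itself lists Slco1b2, Slc27a5 and Baat among its most down-regulated genes in foci. Counts of called genes in this set are therefore a description and not independent evidence. The array carried an annotated probe for 7 of the 8, of 13337 gene symbols with a probe in all. Slco1a1 had no probe under that symbol and was not analysed here. All 7 measured genes had 1 probe each.

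The samples were laser-microdissected liver tissue from male Fischer rats in the Resistant-Hepatocyte model, in which a single dose of diethylnitrosamine is followed by 2-acetylaminofluorene in the diet and a partial hepatectomy. Oval cells (6 arrays), small periportal progenitor-like cells that appear in this model, and Preneoplastic foci (5 arrays), clusters of initiated hepatocytes that outgrow the surrounding tissue, were both taken a week after surgery, as pools of many dissected areas. Control (2 arrays) was labelled as hepatocytes of the liver; the study's methods and supplement differ on whether its areas came from treated or untreated rats. The methods name no other strain or sex for this model, and the rats' age is not given in the labels. Against Control, lesion type, cell type and carcinogen treatment therefore cannot be told apart. Oval cell and Control arrays shared a slide and all foci arrays lay on another, so whatever separates the slides cannot be told apart from the lesion in either comparison with foci. The labels do not tie arrays to animals, and the methods name fewer animals than there are oval cell arrays, so that some arrays share an animal and the p-values are too small.

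Values are the deposited quantile-normalized probe intensities, which have no unit and are compared between groups for the same probe only. An intensity of 300 was used as the limit of reliable signal, after the study's methods, and 26.8% of 22523 probes lay above it on every array. The 6997 probes with a median above 300 in at least 1 group were tested with limma on the log2 scale. A probe was called higher or lower at a Benjamini-Hochberg adjusted p under 0.05 and a difference of at least 2-fold. Shares of all probes that were called, or that did not overlap, are over the 6997 tested. Arrays of 1 group correlated with r of 0.9855 to 0.9952 in oval cells, 0.9867 to 0.993 in foci and 0.9921 in Control. In microdissected tissue, fewer cells of a type and less RNA per cell cannot be told apart.

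The labels were checked against markers of the cell types that the dissected areas could hold. Krt19, a keratin of bile duct and oval cells whose protein staining had helped to choose the dissected oval cells, averaged 6826.2 ± 1083 in oval cells, 700.74 ± 324.7 in foci and 297.4 ± 70.43 in Control (SD, n = 6, 5 and 2). Over 8 biliary markers the summed intensity was 20019 to 29626 in oval cells, 4315.3 to 7264 in foci and 2867.6 to 3161.3 in Control. Of the 8, 7 were called higher in oval cells than in Control (13.5% of all tested probes). Over 7 stellate cell and matrix markers it was 28210 to 38152 in oval cells, 4738.9 to 9476.8 in foci and 5204 to 5871.4 in Control. Over 7 macrophage markers it was 11467 to 16221 in oval cells, 6703.4 to 9114.3 in foci and 8451.4 to 10947 in Control, and over 4 endothelial markers 2830.1 to 3989.2, 1924.7 to 2371.4 and 1730.6 to 2089.1 in the same order of groups. Over 10 hepatocyte markers it was 243550 to 274890 in oval cells, 241830 to 276440 in foci and 286700 to 295790 in Control. None of those 10 was called in any comparison. Of all tested probes, 12.0% were called lower and 13.5% higher in oval cells against Control. The shares were 7.80% and 10.3% in foci against Control, and 6.73% and 7.96% between the lesions. Albumin (Alb) averaged 39885 ± 543.8 in oval cells, 29138 ± 2993 in foci and 35096 ± 3845 in Control, near the brightest deposited value of 43185.53. Ttr and Hpd were lower in oval cells than in Control, under the 2-fold limit (log2 -0.75 and -0.68, limma adjusted p = 0.000346 and 0.000486). Of the 10 markers, 4 were lower and 2 higher in oval cells than in Control without overlap. RNA of these hepatocyte markers was thus abundant in every group, including the one labelled oval cells. Which cells of the dissected areas it came from was not tested.

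All 7 measured genes were lower in oval cells than in Control, with log2 differences of -5.15 to -1.78, and each was called (limma, adjusted p from 1.81e-10 to 4.27e-05). Among all probes tested, 12.0% were called lower in that comparison. In foci, 6 of the 7 were called lower than in Control, against 7.80% of all probes, with Slc22a7 as the exception. Between the lesions, 4 of the 7 were called lower in oval cells than in foci, namely Slc10a1, Slc22a7, Slc27a5 and Baat, against 6.73% of all probes. The median log2 difference over the 7 genes was -2.96 for oval cells and -1.98 for foci, each against Control, and -1.06 between the lesions, where the medians over all tested probes were 0.0128, 0.0086 and -0.0287. The comparisons share samples pairwise and are not independent of each other. For every measured gene the mean was lowest in oval cells, intermediate in foci and highest in Control, but the arrays of oval cells and foci overlapped for Slco1b2, Slco2b1 and Slc27a5.

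**Figure D1:**
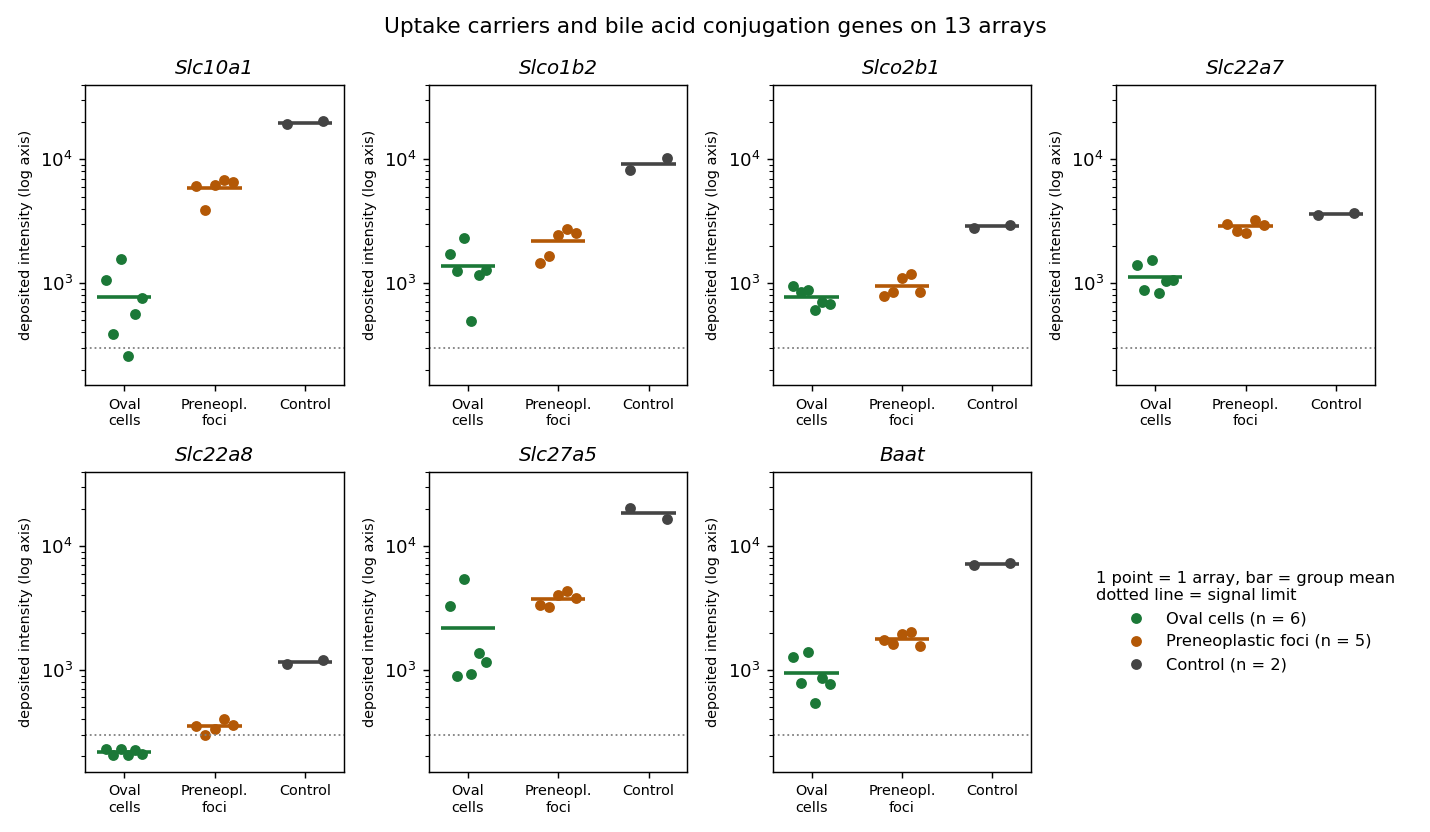
Deposited intensity (log axis) of the 7 measured genes on each of 13 arrays. Points are arrays, bars are arithmetic group means and the dotted line is the signal limit of 300; both Control arrays lie above all arrays of the other groups in every panel, and the 6 Slc22a8 values in oval cells lie under the limit.

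Promoter sequence is shown for the 4 genes in which an HNF1 or HNF4 motif was found, since these genes were lower together in oval cells. In a RefSeq table of the GRCr8 build, all 8 genes matched a window of 250 bases before to 50 bases after the gene start. Both strands were searched. The HNF1 half-site GTTAAT was found in 3 of the 8 windows and in 7.45% of all 33469 windows of that length. The HNF4 motif CAAAGTCCA was found in Baat and in 0.391% of all windows. The 250 upstream bases are printed 5′ to 3′ on the strand of the gene, with the motif in capitals.
Slc10a1, chr6:106357945-106358194, minus strand: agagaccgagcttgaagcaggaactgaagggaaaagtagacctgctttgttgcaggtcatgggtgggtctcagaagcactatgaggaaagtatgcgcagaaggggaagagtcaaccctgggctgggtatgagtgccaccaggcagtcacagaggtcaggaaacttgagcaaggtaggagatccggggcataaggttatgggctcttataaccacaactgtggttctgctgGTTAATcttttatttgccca
Slco1b2, chr4:176282334-176282583, plus strand: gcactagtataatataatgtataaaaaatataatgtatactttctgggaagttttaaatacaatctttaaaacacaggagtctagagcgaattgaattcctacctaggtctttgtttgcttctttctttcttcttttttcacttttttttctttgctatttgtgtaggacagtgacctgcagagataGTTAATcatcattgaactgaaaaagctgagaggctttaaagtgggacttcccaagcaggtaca
Slc22a8, chr1:214927034-214927283, plus strand: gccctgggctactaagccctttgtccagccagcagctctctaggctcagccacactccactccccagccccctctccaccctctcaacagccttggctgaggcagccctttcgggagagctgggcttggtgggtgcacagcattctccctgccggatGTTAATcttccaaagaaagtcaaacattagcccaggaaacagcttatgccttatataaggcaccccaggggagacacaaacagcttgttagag
Baat, chr5:68656138-68656387, minus strand: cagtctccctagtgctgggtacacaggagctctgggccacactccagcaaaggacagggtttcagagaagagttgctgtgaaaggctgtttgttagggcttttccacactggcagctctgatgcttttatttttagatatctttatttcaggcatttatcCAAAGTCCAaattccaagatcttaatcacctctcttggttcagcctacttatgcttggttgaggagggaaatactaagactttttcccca
Counted from the gene start, GTTAAT lay at -20 to -15 in Slc10a1, at -63 to -58 in Slco1b2 and at -93 to -88 in Slc22a8, and CAAAGTCCA at -90 to -82 in Baat. The C/EBP motif TTGCNNAA was found on the opposite strand in Slc10a1 and Slco2b1 (10.6% of all windows). The TATA box letters TATAAA were found in Slco1b2 (14.2%), far upstream at -231 to -226. Only that exact run of letters was searched, and variants of it were not. The FOXA motif TGTTTAC (3.78% of all windows), DR1, the direct repeat of AGGTCA with 1 free base between (0.0538%), and the FXR inverted repeat, AGGTCA and TGACCT with 1 free base between (0.0269%), were found in none of the 8. TTGCNNAA and GTTAAT did not overlap where both occurred. A match is a run of letters and not evidence of a bound site.

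Slc10a1 encodes NTCP, the main sodium-dependent carrier of conjugated bile acids into hepatocytes, and had the largest difference of the 7 genes in both comparisons of oval cells. Its intensity in oval cells was 255.52 at the lowest, 660.04 at the median and 1569.2 at the highest. It was 6150.7, 3902.9, 6183.3, 6775.2 and 6584.2 in foci, against 19361 and 20335 in Control. The 3 groups were fully separated, with a gap between each, and 1 of the 6 oval cell arrays lay under 300. Slc10a1 was 35.6-fold lower in oval cells than in Control (log2 difference -5.15, SE 0.549, 95% interval -6.33 to -3.98, limma adjusted p = 9.87e-07). It was 10.3-fold lower in oval cells than in foci (log2 -3.37, SE 0.407, interval -4.24 to -2.50, adjusted p = 3.45e-06). The deficit in foci against Control was 3.45-fold (log2 -1.79, SE 0.562, interval -2.99 to -0.58, adjusted p = 0.012). That last call rested on both Control arrays: the log2 difference was -1.82 without Control replicate 1 (adjusted p = 0.0619) and -1.75 without Control replicate 2 (adjusted p = 0.0659).

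Of the sodium-independent carriers, Slco1b2, the rodent counterpart of the human OATP1B carriers that take up bilirubin, bile acids and many drugs, was lower in both lesions. It measured 493.32, 1264.9 and 2311.5 in oval cells at the lowest, median and highest array. The foci gave 1446.8, 1661.8, 2463.1, 2749.6 and 2540.4, against 8193.1 and 10171 in Control. Both lesions lay well under Control, while the 2 highest oval cell arrays lay within the range of the foci. Slco1b2 was 7.81-fold lower in oval cells than in Control (log2 -2.97, SE 0.438, adjusted p = 2.59e-05) and 4.46-fold lower in foci than in Control (log2 -2.16, SE 0.449, adjusted p = 0.000727). Between oval cells and foci the difference was -0.81 (SE 0.325, interval -1.5 to -0.11, adjusted p = 0.0374), under the 2-fold limit.

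Slco2b1, a carrier of sulfated steroids that is expressed in many tissues, had the narrowest relative spread among oval cell arrays of the 6 genes with a median above 300 there. Its oval cell values were 606.4 at the lowest, 773 at the median and 953.79 at the highest. In foci it measured 790.57, 842, 1104.2, 1178.9 and 853.75, against 2813.6 and 2975.5 in Control. The lesions overlapped each other and neither reached Control. It was 4.05-fold lower in oval cells than in Control (log2 -2.02, SE 0.192, adjusted p = 3.22e-07) and 3.25-fold lower in foci than in Control (log2 -1.70, SE 0.197, adjusted p = 3.76e-06). Between the lesions the difference was -0.32 (SE 0.142, interval -0.62 to -0.014, adjusted p = 0.0587), which did not pass the threshold.

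The 2 organic anion transporters parted in the foci. Slc22a7 encodes OAT2, a sinusoidal carrier of small organic anions and nucleotides. It measured 832.35 at the lowest, 1057.4 at the median and 1528.7 at the highest in oval cells. In foci it measured 2985.1, 2662, 2551.3, 3213.2 and 2975.5, against 3524.9 and 3692.9 in Control. Oval cells lay far under both other groups, and the foci lay just under Control without overlap. Slc22a7 was 3.44-fold lower in oval cells than in Control (log2 -1.78, SE 0.202, adjusted p = 1.86e-06) and 2.72-fold lower in oval cells than in foci (log2 -1.45, SE 0.15, adjusted p = 7.46e-07). The difference between foci and Control was -0.34 (SE 0.207, interval -0.78 to 0.10, adjusted p = 0.164). It was the only one of the 7 genes not called in that comparison. Under centring on ribosomal protein genes it was called at -1.18, but that centring moved the median of all tested probes there to -0.829.

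Slc22a8 encodes OAT3, best known as the basolateral organic anion carrier of the kidney and also present in rat liver. All 6 oval cell arrays were under the signal limit, at 203.31 to 228.95 with a median of 215.88. Foci arrays measured 351.47, 296.73, 332.8, 403.3 and 358.4, 1 of them under the limit, against 1108.5 and 1206.9 in Control. The 3 groups did not overlap, and Control was the only group with all arrays above the limit. Slc22a8 was at least 3.86-fold lower in oval cells than in Control, taking 300 as the level in oval cells (adjusted p = 1.81e-10), and 3.94-fold lower in foci than in Control (log2 -1.98, SE 0.131, adjusted p = 1.66e-08). Against foci, oval cells were lower by at least 1.16-fold, and the fitted log2 difference of -0.93 (SE 0.0946, adjusted p = 6.04e-07) fell short of the 2-fold limit. It reached that limit without foci replicate 2, at -1.0. The probe's median over 13 arrays was 296.73, so it failed a filter set on all arrays, which the other 6 genes passed.

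Both conjugation enzymes were lower in each lesion than in Control. Slc27a5 encodes the ligase that activates bile acids with coenzyme A and also takes up fatty acids. Its oval cell values of 3310.4, 893.16, 5446.1, 922.9, 1372.8 and 1157 had the largest relative spread of the 7 genes, with a coefficient of variation of 84.1%. Foci measured 3358.9, 3245.5, 4056, 4317.4 and 3840.4, against 20335 and 16587 in Control. Oval cell replicate 3 exceeded every foci array and replicate 1 lay among them, while the other 4 were lower. Slc27a5 was 11.4-fold lower in oval cells than in Control (log2 -3.51, SE 0.546, adjusted p = 4.27e-05) and 4.98-fold lower in foci than in Control (log2 -2.32, SE 0.56, adjusted p = 0.00222). The 2.28-fold deficit in oval cells against foci (log2 -1.19, SE 0.405, adjusted p = 0.0166) was called with overlapping arrays, and without oval cell replicate 2 it was -1.0, just inside the 2-fold limit and no longer called.

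Baat encodes the enzyme that transfers glycine or taurine to the activated bile acid. It measured 538.8 at the lowest, 817.42 at the median and 1393.5 at the highest in oval cells. The foci gave 1758.7, 1618.9, 1946.4, 2015 and 1566.9, against 7054.2 and 7370.8 in Control. The groups formed 3 steps without overlap. Baat was 8.78-fold lower in oval cells than in Control (log2 -3.13, SE 0.283, adjusted p = 1.88e-07), 4.2-fold lower in foci than in Control (log2 -2.07, SE 0.29, adjusted p = 2.29e-05) and 2.09-fold lower in oval cells than in foci (log2 -1.07, SE 0.21, adjusted p = 0.000365). The call between the lesions was lost without oval cell replicate 4, at -0.91.

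**Figure D2:**
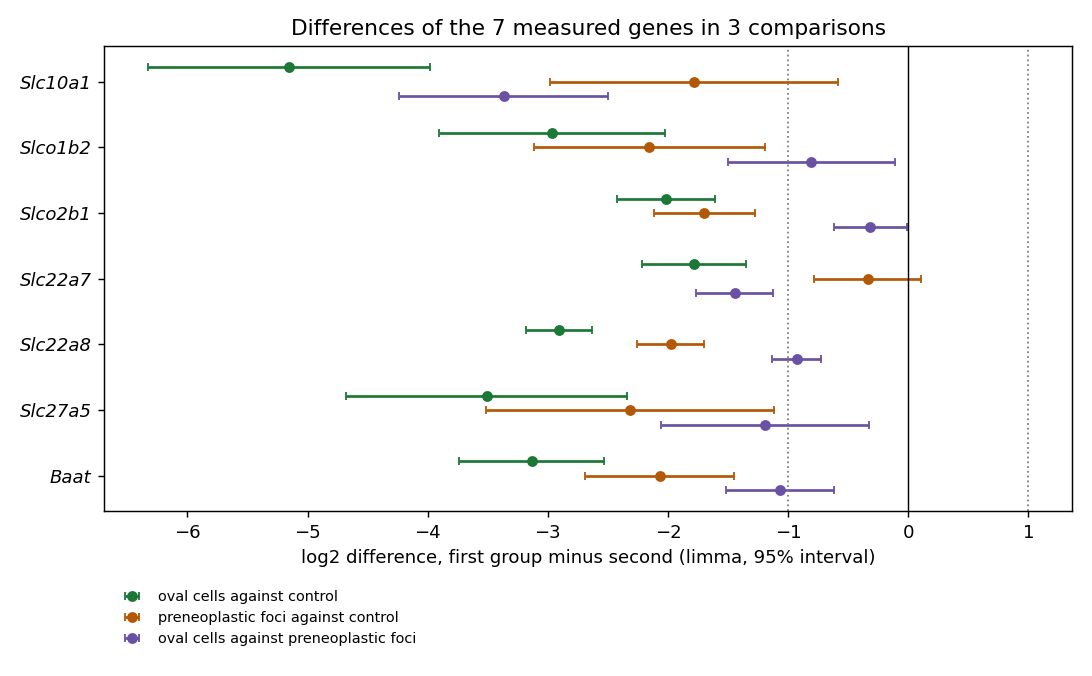
Log2 differences with 95% intervals (limma) for the 7 measured genes, first group minus second, for each lesion against Control and for oval cells against foci. Dotted lines mark the 2-fold limit; all points are negative, and the interval of Slc22a7 in foci against Control includes 0.

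Complete separation of the arrays was common on this platform and was read against all tested probes. No array of oval cells reached Control for any of the 7 genes (35.7% of all probes were lower without overlap), and the same held for foci against Control (34.1%). Oval cells lay under foci without overlap for Slc10a1, Slc22a7, Slc22a8 and Baat, 4 of the 7 (25.7% of all probes).

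Within oval cells the 7 genes were high and low on much the same arrays. Replicates 1 and 3 held the 2 highest values for all 7, and replicate 4 held the lowest for 6 of the 7, all but Slc27a5. The range was wide for Slc10a1 (coefficient of variation 63.3%) and Slc27a5. Replicates 1 and 3 also had the lowest biliary marker sums among oval cell arrays, 20019 and 20849 against 23508 to 29626 in the other 4. Their hepatocyte marker sums were the highest, 274890 and 272160 against 243550 to 263200. Replicate 4 had a hepatocyte sum of 263170, and its mean log2 over those markers equalled that of replicate 3, at 14.57. Replicate 6 had the highest biliary sum (29626) and the lowest hepatocyte sum (243550), but was not lowest for any of the 7 genes. The part of these markers in the values of the 7 genes was not tested. With replicates 1 and 3 left out together, 7 of the 7 genes were called in oval cells and 6 in foci, each against Control, and 5 between the lesions. The added call was Slco1b2 in oval cells against foci, at -1.18 (adjusted p = 0.0031), and Slc10a1 in oval cells against Control was then -5.72. This alternative was chosen after the values were seen. Among the foci, replicate 4 was highest for all 7 genes and had the lowest hepatocyte marker sum of the 13 arrays (241830), opposite to oval cell replicates 1 and 3. Replicate 2, lowest for Slc10a1, Slc22a8 and Slc27a5, had the highest biliary sum of the foci (7264), the highest stellate sum (9476.8) and a hepatocyte sum of 257340, where the 5 foci arrays ranged from 241830 to 276440.

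**Figure D3:**
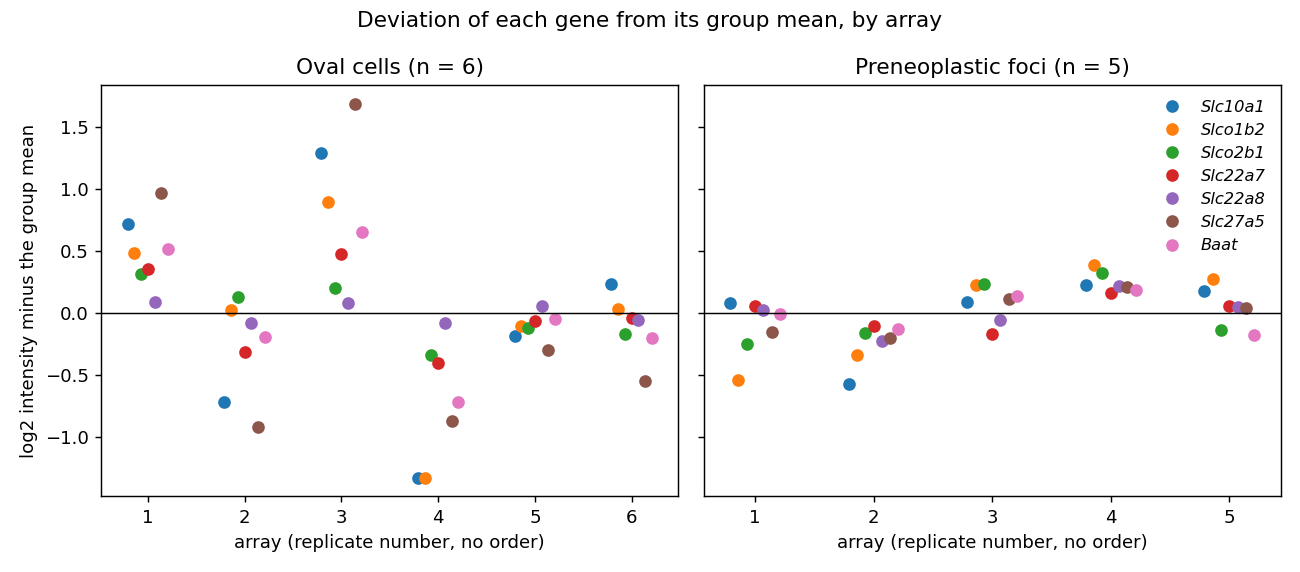
Log2 intensity of each of the 7 genes minus its group mean, by array, in oval cells and in foci; array numbers have no order. In oval cells replicates 1 and 3 lie above 0 for all 7 genes, and the range of deviations is narrower in foci than in oval cells for Slc10a1 and Slc27a5.

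Other carriers of hepatic uptake were called lower or were not called. Of 18 listed carriers of the sinusoidal membrane, 14 had a probe and 9 were tested. In oval cells against Control 3 of the 9 were called lower (12.0% of all probes), in foci against Control 1 (7.80%) and in oval cells against foci 2 (6.73%). None was called higher, where 13.5%, 10.3% and 7.96% of all probes were in the same comparisons. With 9 genes tested, the count in foci and the absence of higher calls were close to these shares. Slc1a2 was among the 3 called in oval cells (log2 -1.01, limma adjusted p = 0.000388), with 5 of the 6 oval cell arrays under 300. Its probe passed the filter through Control alone, so that against Control only a lower call was possible. Slc13a3, the sodium-dependent dicarboxylate carrier, averaged 228.38 ± 57.13 in oval cells, 401.24 ± 57.52 in foci and 647.13 ± 23.96 in Control (SD, n = 6, 5 and 2), and was called lower in oval cells than in Control (log2 -1.94, SE 0.257, adjusted p = 9.17e-06), with 5 of the 6 oval cell arrays under 300 and the size of the difference therefore uncertain. Slc38a3, a glutamine carrier, averaged 774.09 ± 128.9 in oval cells, 1658.9 ± 150.7 in foci and 1567.4 ± 91.99 in Control. It was called lower in oval cells than in Control (log2 -1.11) and than in foci (log2 -1.19), and differed by 0.08 between foci and Control (adjusted p = 0.669). The nucleoside carrier Slc29a1 was called lower in foci than in Control (log2 -1.02, adjusted p = 0.000321) and missed the 2-fold limit in oval cells (log2 -0.97, adjusted p = 3e-04). The median over the 14 carriers with a probe was -0.445 for oval cells against Control, -0.225 for foci against Control and 0.0142 between the lesions. All 22523 probes, tested or not, had -0.0237, -0.0106 and -0.0117. The lactate carrier Slc16a1 had -0.73 for oval cells against Control (SE 0.116, adjusted p = 5.22e-05), under the limit.

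Bile acid synthesis enzymes were called in both directions. Of 14 listed, all had a probe and 11 were tested: 5 were lower and 1 higher in oval cells than in Control, 2 were lower in foci than in Control, and 3 were lower and 1 higher in oval cells than in foci. Over all probes, 12.0%, 7.80% and 6.73% were called lower and 13.5%, 10.3% and 7.96% higher in these comparisons, in the same order. Acox2, the peroxisomal oxidase of the bile acid side chain, averaged 566.26 ± 140 in oval cells, 1474.5 ± 213.5 in foci and 2664 ± 139.4 in Control (log2 -2.43 for oval cells against Control, adjusted p = 1.18e-07). Scp2, the peroxisomal thiolase and sterol carrier, was lower in oval cells than in Control (log2 -1.34, adjusted p = 1.18e-06), and Hsd17b4 missed the 2-fold limit in both lesions (log2 -0.92 in oval cells and -0.93 in foci against Control), but was called in both under cyclic loess, at -1.26 and -1.24. Cyp7b1, the oxysterol hydroxylase of the alternative pathway, was the gene called higher: 870.93 ± 162.2 in oval cells, 425.87 ± 38.7 in foci and 281.04 ± 25.09 in Control, at least 2.86-fold higher in oval cells than in Control. Under centring on ribosomal protein genes that difference was 0.90 and was not called.

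Further enzymes were picked after their values were seen. Cyp7a1, the rate-limiting enzyme of the classic pathway, measured 303.59 at the lowest, 505.47 at the median and 2469.7 at the highest in oval cells, averaged 3865.8 ± 1527 in foci and 5644.2 ± 1702 in Control. It was called lower in oval cells than in Control (log2 -3.12, SE 0.699, adjusted p = 0.00101) and than in foci (log2 -2.50, SE 0.519, adjusted p = 0.000562, with overlapping arrays), and differed by -0.63 between foci and Control (SE 0.717, adjusted p = 0.455). Cyp8b1, the sterol hydroxylase that sets the proportion of cholic acid, was also lower in oval cells than in Control (log2 -1.95) and than in foci (log2 -2.04), with 0.09 between foci and Control. Amacr, the racemase of bile acid intermediates, was called lower in oval cells (log2 -2.59) and in foci (log2 -2.12) than in Control, as was Hsd3b7 in foci alone (log2 -1.35), with -0.92 in oval cells.

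Exporters were called in both directions. Of 13 listed, 9 had a probe and 6 were tested. In oval cells against Control 2 were called higher and 2 lower, and in foci against Control 2 higher. Between the lesions, 1 was higher and 3 were lower in oval cells than in foci. Shares over all probes were 13.5%, 10.3% and 7.96% called higher and 12.0%, 7.80% and 6.73% called lower, in the same order. A list of 6 genes is too short to read its counts against those shares. Abcb1b, a multidrug exporter, averaged 19003 ± 2446 in oval cells and 9310.4 ± 1733 in foci, and both Control arrays were under 300, at 152.99 and 164.62. It was at least 62.9-fold higher in oval cells and at least 30.6-fold higher in foci than in Control (adjusted p = 6.67e-14 and 4.63e-13). Abcc3, the basolateral exporter of conjugates, averaged 1011.8 ± 115.9 in oval cells, 2650.8 ± 477.4 in foci and 245.74 ± 32.94 in Control, at least 3.35-fold higher in oval cells and at least 8.72-fold higher in foci than in Control. Abcc3 was lower in oval cells than in foci (log2 -1.44, adjusted p = 1.55e-07). The canalicular sterol exporter subunit Abcg5 was under 300 on all 6 oval cell arrays and averaged 944.34 ± 252.2 in foci and 567.52 ± 52.53 in Control, so that it was at least 1.89-fold lower in oval cells than in Control. Abcg2 missed the 2-fold limit in oval cells against Control (log2 -0.87, adjusted p = 6.43e-05).

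Regulators of bile acid genes were called lower or were not called. Of 18 listed, 16 had a probe and 14 were tested. Called lower were 7 in oval cells against Control (12.0% of all probes), 4 in foci against Control (7.80%) and 4 in oval cells against foci (6.73%). Shares called higher over all probes were 13.5%, 10.3% and 7.96%, in the same order. With 14 genes tested, the absence of higher calls was close to these shares. In foci against Control 10 of the 14 were not called. The number called in oval cells against Control was 4 under the methods' filter and 14 under ribosomal centring, and in foci against Control it was 1 without background correction, 2 under the methods' filter, 2 without Control replicate 1 and 9 under ribosomal centring. The median over the 16 was -0.79 for oval cells against Control, -0.407 for foci against Control and -0.657 between the lesions. Over all 22523 probes, tested or not, it was -0.0237, -0.0106 and -0.0117. Nr1h4, the bile acid receptor FXR, averaged 424.41 ± 28.51 in oval cells, 705.62 ± 32.85 in foci and 1257.6 ± 29.84 in Control. It was called lower in oval cells than in Control (log2 -1.75, SE 0.0937, adjusted p = 1.35e-09), while foci against Control gave -0.90 and oval cells against foci -0.85, both under the 2-fold limit. Nr0b2, the FXR target and repressor SHP, was under 300 on every lesion array and averaged 380.12 ± 2.503 in Control, at least 1.27-fold lower in each lesion. The probes of Nr0b2, Foxa1, Nr5a2 and Rara passed the filter through Control alone, so against Control they could only be called lower. Of these, Nr0b2 and Foxa1 were among the 7 called in oval cells, and Nr0b2 among the 4 called in foci. Cebpa, a liver-enriched transcription factor, averaged 246.08 ± 41.59 in oval cells, 509.21 ± 83.47 in foci and 981.48 ± 159.8 in Control (log2 -2.40 for oval cells against Control and -1.06 for foci against Control, adjusted p = 1.64e-07 and 0.000663), with 5 of the 6 oval cell arrays under 300, so that the size of the first difference rests on values under the signal limit. Rxra, the dimer partner of FXR, was at least 1.91-fold lower in oval cells than in Control.

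Leaving out 1 array ended some of these calls in foci against Control and added others in oval cells against Control. Without Control replicate 1, Cebpa was -0.88, Rxra -0.81 and Slc29a1 -0.86. Rxra was -0.99 without foci replicate 1, Cebpa was -0.99 without foci replicate 3, and Slc29a1 was -0.96 without foci replicate 2 and -0.98 without foci replicate 5. In oval cells against Control, Slc29a1 was called at -1.12 without Control replicate 2, at -1.04 without oval cell replicate 1 and at -1.02 without oval cell replicate 3, and Abcg2 was called at -1.04 without Control replicate 1. The 2-fold call of Abcb1b between oval cells and foci, at 1.04, was 0.99 without oval cell replicate 1 and 0.95 without foci replicate 1. Of 12 listed carriers of the same families that belong mainly to other cells, 3 were tested. Slco2a1, the prostaglandin carrier, was called lower in oval cells than in Control (at least 1.85-fold) and in foci than in Control (log2 -1.40, with 4 of the 5 foci arrays under 300). Its probe likewise passed the filter through Control alone. Slc10a7 and Slc27a1 had log2 differences of 0.08 and 0.06 for oval cells against Control.

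**Figure D4:**
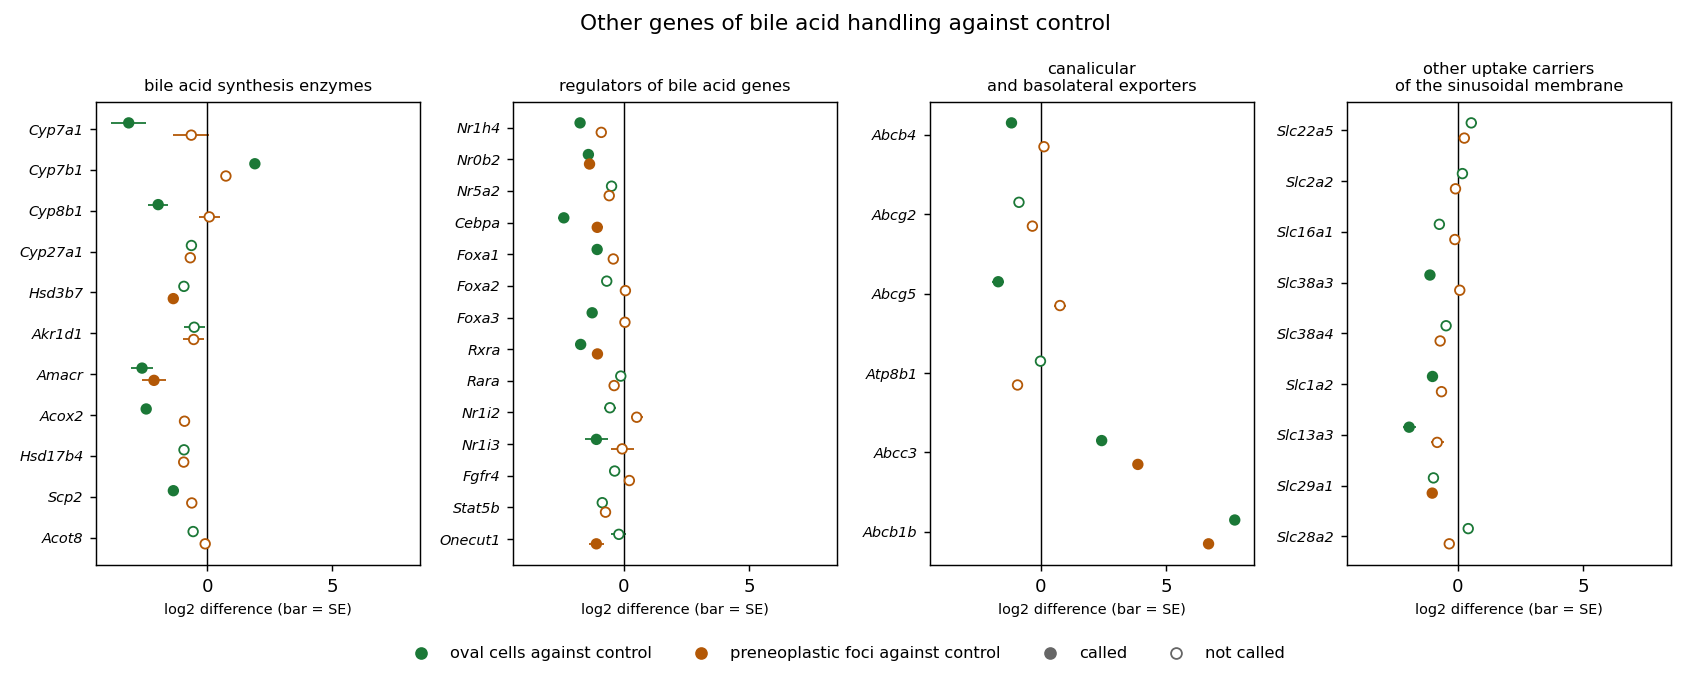
Log2 difference (bars show SE) against Control in oval cells and in foci for the tested genes of 4 lists of bile acid handling. Filled points were called at an adjusted p under 0.05 and 2-fold. Abcb1b and Abcc3 lie to the right in both lesions.

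The profiles of the 7 genes over 13 arrays were also compared, by the root mean square of the difference between log2 values centred on each gene's mean. Among the 7 the closest pair was Slc22a8 and Baat at 0.31, followed by Slco1b2 and Baat at 0.335, and the farthest was Slc10a1 and Slco2b1 at 1.65. Of 5458 other probes with a gene name, the nearest to Slc10a1 were Apof (0.314), Fads1 (0.528) and Leap2 (0.56). Slco1b2 was nearest to Cyp2c13 (0.287), Ang (0.304) and Hsd3b5 (0.318), and Slco2b1 to Sult1c2 (0.141), Bphl (0.147) and Itih1 (0.153). Slc22a7 was nearest to Serpinf2 (0.135), Slc26a1 (0.175) and Fabp1 (0.176), and Slc22a8 to Acly (0.178), Abat (0.184) and Gpld1 (0.192). Slc27a5 was nearest to Avpr1a (0.418), Ang (0.479) and Hsd3b5 (0.484), and Baat to Hsd3b5 (0.19), Aadat (0.212) and Cyp4f4 (0.225). Hsd3b5 stood among the nearest 3 for Slco1b2, Slc27a5 and Baat. These distances are descriptions over arrays that share the same 3 groups.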

How the data were processed

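Gene expression was measured on Illumina rat bead arrays in 13 samples of microdissected liver (6 oval cell, 5 Preneoplastic foci and 2 Control arrays). The authors loaded the scanned intensities into BeadStudio 3.0.19.0 and deposited quantile-normalized intensity values per probe, used here as the starting point; replicates were not pooled in that table. A further table of non-normalized values was not used, because its 26 per-sample columns carry no name that matches the labels. Bead-level precision is not used, so the number of arrays limits the precision. Intensities were corrected with normexp (offset 50), quantile-normalized and log2-transformed, and 6997 of 22523 probes with a median over 300 in at least 1 group were tested in 1 fit of all 13 arrays with limma 3.58.1 in R 4.3.3, followed by Benjamini-Hochberg adjustment over all tested probes. Arrays were grouped by their labelled source. Where every array of the dimmer group was under 300, the fold is a lower bound, the brighter group's geometric mean over 300. Probe names came from the platform annotation (13793 probes with 1 gene symbol, 8730 unnamed here, 13752 of the named matched to RefSeq). The members, lists and tests were chosen with earlier results of these data known. Genes were named by a rule: all members, up to 4 genes of every other list with the smallest adjusted p in oval cells against Control, and the 3 nearest profiles of each member. Cyp7a1, Cyp8b1, Amacr, Hsd3b7, Alb, Slc1a2, Foxa1, Nr5a2 and Rara fall outside this rule and were named after their values were seen. Of the genes that the rule picks from the cell type marker lists, only Krt19, Ttr and Hpd were named. In simulated data with 200 changed genes, run on 6997 genes, 4-fold changes were called in 99%, 98% and 98% of cases. Changes of 2-fold were called in 52%, 45% and 54%. The order is oval cells and foci, each against Control, and then between the lesions. The planted 2-fold changes lay exactly at the fold limit, so their rate was set largely by that limit. Simulated noise was drawn independently for each array, unlike arrays that share an animal. Alternatives covered background correction, offset, filter, fold limit, samples in the fit, array weights, cyclic loess, centring on 56 ribosomal protein probes, the methods' t-test and leaving out each array. Whether arrays are separate animals is not stated in the labels, so p-values measure the spread between arrays, which may be technical. Quantile normalization gives all arrays the same distribution and so removes any shift common to all genes.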

Additional observations from a re-analysis of the deposited data

Results flagged for a closer look

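Slc10a1 in foci replicate 2 had an intensity of 3902.9, apart from the other 4 foci arrays at 6150.7, 6183.3, 6584.2 and 6775.2. It was picked out because its gap to the nearest array was 0.783 of the whole range of the group. A test of this kind picks out about 1 group in 20 by chance, and 1 of 14 groups checked (7 genes in oval cells and in foci) was picked out. The same array had the highest biliary marker sum (7264) and stellate and matrix marker sum (9476.8) among the foci, and their part in the value was not tested.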

How the results depend on the processing

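The number of the 7 genes called stayed within 1.5 times the reported count under all settings run, at 5 to 7 in oval cells against Control, 4 to 7 in foci against Control and 3 to 6 in oval cells against foci. With 1 array left out it was 7, 5 to 6 and 3 to 5. None of the 7 changed direction in any comparison. The filter of the methods left Slc22a8 and Slco2b1 untested. Besides the calls named in the report, Slc27a5 in oval cells against foci was lost with the methods' t-test (adjusted p = 0.0628) and Baat without background correction (-1.0), while Slc22a8 was called there with an offset of 16 (-1.13) and under ribosomal centring (-1.10). Over all settings the number of called genes ranged from 2 to 8 for other uptake carriers, 6 to 10 for synthesis enzymes, 3 to 6 for exporters, 4 to 14 for regulators and 0 to 1 for related carriers in oval cells against Control. In foci against Control it ranged from 0 to 5, 2 to 7, 2 to 4, 1 to 9 and 0 to 3 for the same lists, and in oval cells against foci from 1 to 6, 3 to 7, 3 to 6, 3 to 11 and 0 to 3. Total calls of 1781, 1268 and 1028 became 941 and 633 in the 2 comparisons with Control under the methods' filter, 4958, 4532 and 4902 without a fold limit, and 3739 and 2988 in the comparisons with Control under ribosomal centring. That centring moved the median of all tested probes to -0.995, -0.829 and -0.199. The percent of calls that were higher was then 7.25, 5.49 and 35.8 in place of 52.9, 56.9 and 54.2. Under it, uncalled values turned for Slc10a7 (-0.93) and Slc27a1 (-0.95) in oval cells against Control, for Slc38a3 (-0.76), Cyp7b1 (-0.0843), Abcg5 (-0.0733) and Slc10a7 (-0.31) in foci against Control, and for Slc29a1 (-0.12) and Hsd17b4 (-0.16) in oval cells against foci. With 1 array left out, uncalled values ran over both signs for Slc10a7 in oval cells against Control (-0.142 to 0.306), Slc16a1 in foci against Control (-0.286 to 0.0599), and Slc29a1 (-0.0258 to 0.147) and Hsd17b4 (-0.0402 to 0.0522) in oval cells against foci. Hsd17b4 also turned with array weights (-0.0035) and cyclic loess (-0.0195), and without oval cell replicates 1 and 3 together, an alternative chosen after seeing the data, Slc29a1 was -0.105 and Hsd17b4 -0.0724. The cause was not tested. No member had another probe to compare. No paired analysis was possible because the labels number arrays by group and share no number between groups. Signals under 300 limit Slc22a8 in oval cells to a bound, and 2 Control arrays limit every comparison with Control.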
